A study of Saccharomyces cerevisiae with 3 samples.

Results

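The genes described here are 10 genes of vitamin B6 and thiamine synthesis in Saccharomyces cerevisiae, taken by name from a table of log ratios: SNZ1, SNZ2, SNZ3, SNO1, SNO2, SNO3, THI4, THI5, THI13 and THI20. A platform annotation named a probe for 9 of the 10, among 5203 named genes on the array, and SNO3 was not analysed here. Of the 9, each had 1 probe, 7 had a value on all 3 arrays, and THI4 and THI5 had a value on 2. Cells of strain S288C, the standard laboratory strain, in exponential growth in YPD, a rich medium with glucose, at 25 C were exposed in 100 ml cultures to 1.5 uM fluazinam, a fungicide known as an uncoupler of oxidative phosphorylation, for 2 h. Untreated cells of the same strain, grown in the same medium for 2 h without the compound, were the reference on every array. Treated cDNA carried Cy5 and untreated cDNA Cy3 on all 3 arrays, which the design text describes as independent biological samples, so dye and treatment cannot be told apart for any 1 gene.

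Vitamin B6 in its active form, pyridoxal phosphate, is a cofactor of transaminases and many other enzymes of amino acid metabolism. In yeast it is made by a complex of an Snz protein, the synthase, and an Sno protein, the glutaminase that feeds it ammonia. The SNZ and SNO genes lie side by side in pairs, each pair transcribed away from a shared intergenic region. SNZ1 and SNO1 are known to be induced at entry into stationary phase and when amino acids run short, the latter through the transcription factor Gcn4, while the pairs SNZ2-SNO2 and SNZ3-SNO3 lie next to THI12 and THI5 and are known to respond to thiamine. Thiamine is assembled from a pyrimidine, whose precursor the THI5 family makes from vitamin B6 and histidine, and a thiazole, whose precursor Thi4 makes. Its diphosphate is the cofactor of pyruvate decarboxylase and transketolase.

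The sources used here name neither the base of the log ratios nor which channel was divided by which. Values were taken to be log2 and treated over untreated. This direction is likely rather than settled, since its basis is that treated RNA was channel 1 with Cy5; turned, every sign below would turn, and a natural log would make every fold larger. Between 4463 and 5245 of 6272 probes had a value on an array, and the 3802 genes and unnamed features measured on all 3 were tested. The Pearson correlation of the arrays across these features, which are not independent replicates, was 0.507 for replicates 1 and 2, 0.629 for replicates 1 and 3 and 0.434 for replicates 2 and 3. With 3 arrays and no spot intensities, the precision is limited and the signal over background is unknown.

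SNZ1 and SNO1 were far higher in treated than in untreated cells on 1 array and moderately higher on the others. SNZ3 and the pyrimidine gene THI13 had ratios above 0 on every array, with their smallest values on the array where SNZ1 and SNO1 were largest. SNZ2, SNO2 and THI20 had values of both signs. None of the 7 genes tested passed limma's test with Benjamini-Hochberg adjustment at 0.05, against 7.86% of all features. At an unadjusted p under 0.05 there were 4, against 29.7% of all features, both shares counting either direction. The 4 were SNZ1, SNO1, SNZ3 and THI13, which were also the 4 with ratios above 0 on all 3 arrays, as 25.2% of all features were. At an adjusted p under 0.1 the same 4 genes passed, all upward, against 18.8% of all features in either direction and 7.89% upward. The median of the 7 means was 1.08, against -0.0049 over all features.

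**Figure D1:**
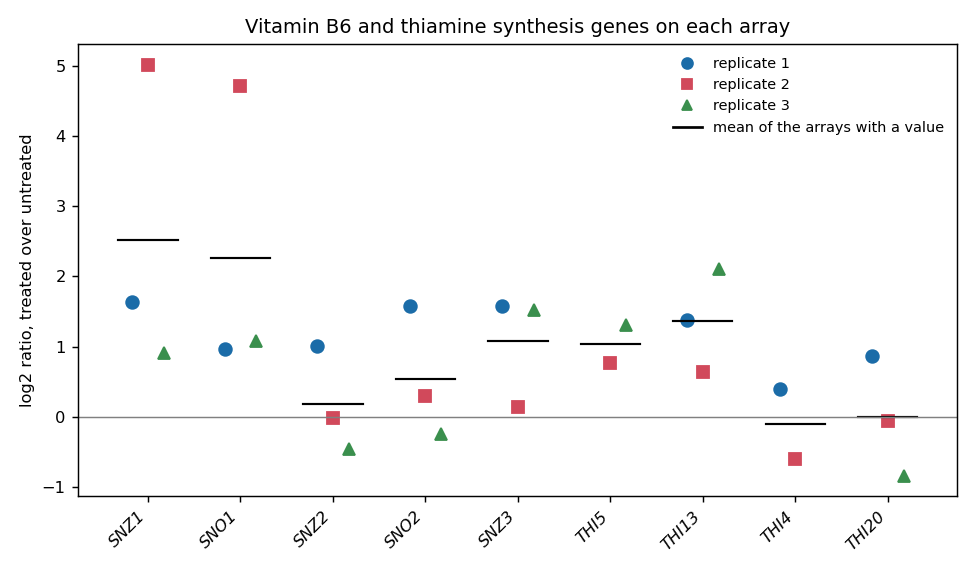
Log2 ratio of treated over untreated cells (vertical axis) for the 9 genes with a probe; symbols are the 3 arrays and black bars the mean of the arrays with a value. Replicate 2 stands at 5.02 for SNZ1 and 4.72 for SNO1, and for SNZ3 and THI13 it is the lowest of the 3 arrays.

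SNZ1 (YMR096W), the synthase gene of the pair known for its stationary phase induction, had log2 ratios of 1.63, 5.02 and 0.91 on replicates 1, 2 and 3. Replicate 2 was thus far above the others, at 32.4-fold against 3.10-fold and 1.88-fold, and all 3 ratios were above 0. The mean was 2.52 ± 2.19 (SD, n = 3), with a 95% interval of 0.83 to 4.21 from limma and an adjusted p of 0.0743, so the change did not pass. On replicate 2 this was the fifth highest ratio of 5152 genes and unnamed features (rank 5), while on replicates 1 and 3 SNZ1 ranked 189 of 4379 and 610 of 4777. Without replicate 2 the mean fell to 1.27 and passed limma's test at an adjusted p of 0.0269, where 7.31% of all features passed upward. SNZ1 did not pass without replicate 1 (mean 2.96, adjusted p = 0.107) or replicate 3 (3.32, 0.0677), where 11 and 0 of the 3802 features passed.

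SNO1 (YMR095C), the glutaminase gene across the shared intergenic region, had log2 ratios of 0.97, 4.72 and 1.08. It shared the high value of SNZ1 on replicate 2, where it ranked 6, directly after SNZ1, while on replicates 1 and 3 it ranked 546 and 422. The mean was 2.26 ± 2.13 (SD, n = 3; 95% interval 0.61 to 3.91, limma adjusted p = 0.0892), which did not pass; without replicate 2 it was 1.03 (adjusted p = 0.0725). Within an array, SNZ1 minus SNO1 was 0.66, 0.30 and -0.17 on the log2 scale (mean 0.26 ± 0.42), so the genes of the pair differed by less than the spread of that difference. Their probes lay in different parts of the array, in rows 6 and 3 of sub-grid column 4. The median log2 ratios of their sub-grids were 0.13 and 0.19 on replicate 2, and 0.34 and 0.52 on replicate 3. With sub-grid medians subtracted, SNZ1 stood at 1.72, 4.88 and 0.57 and SNO1 at 0.89, 4.53 and 0.56. Their means were then 2.39 and 1.99 (limma adjusted p = 0.0786 and 0.113).

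The excess of replicate 2 was among the largest of all features for both genes. The log2 ratio on replicate 2 exceeded the mean of the other arrays by 3.74 for SNZ1 and 3.69 for SNO1, ranking 8 and 9 of the 3802 tested features. The genes whose 3 values lay nearest to those of SNZ1, by Euclidean distance over the arrays, were TMT1 (distance 0.67), ARO5 (1.35) and ATG41 (1.41). ARO5 (0.80), ATG41 (0.91) and STR3 (0.94) lay nearest to SNO1. TMT1, the trans-aconitate methyltransferase gene, was at 1.87, 4.57 and 1.35, and STR3, a cystathionine beta-lyase gene of the sulfur amino acid pathway, was at 0.74, 3.83 and 1.31. A high value on replicate 2 follows from this choice of genes.

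Genes of amino acid synthesis, the classical Gcn4 targets, also differed on replicate 2. For a list of 39 such genes, Gcn4's own gene included, the median log2 ratio was -1.06 on replicate 1 (34 genes with a value), 1.87 on replicate 2 (37 genes) and -0.64 on replicate 3 (34 genes). On replicate 2, 35 of the 37 values were above 0, and ARG1, of arginine synthesis, at 5.50 was the 1 value above those of SNZ1 and SNO1. On replicates 1 and 3 most of the list was below 0, with 7 of 34 values above 0 on each, whereas SNZ1 and SNO1 stayed above 0 and above every gene of the list. GCN4 itself had log2 ratios of -1.04, 0.48 and -0.20. The part of this list in the values of SNZ1 and SNO1 was not tested. For 7 genes known from stationary phase, 6 of them with values, the medians were 1.78, 1.88 and 1.40, so the median of this list did not show the jump on replicate 2. Its genes were split there, with 4 of 6 values above 0, against 6 of 6 on replicates 1 and 3. SPG4 was highest on replicate 2 (1.53, 2.54 and 1.36). SPG3 (1.80, -0.41 and 0.53) and SPG5 (0.22, -0.81 and 0.73) were lowest on it. Of the 6, 4 rose (HSP12, MOH1, SPG4 and UBI4), where 3.39% of all features rose; without replicate 1 the count was 2 and without replicate 3 it was 0, settings in which 11 and 0 of the 3802 features passed in all. On replicate 2 no gene of that list reached SNZ1 or SNO1, while on replicates 1 and 3, 4 of the 6 were above SNZ1.

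**Figure D2:**
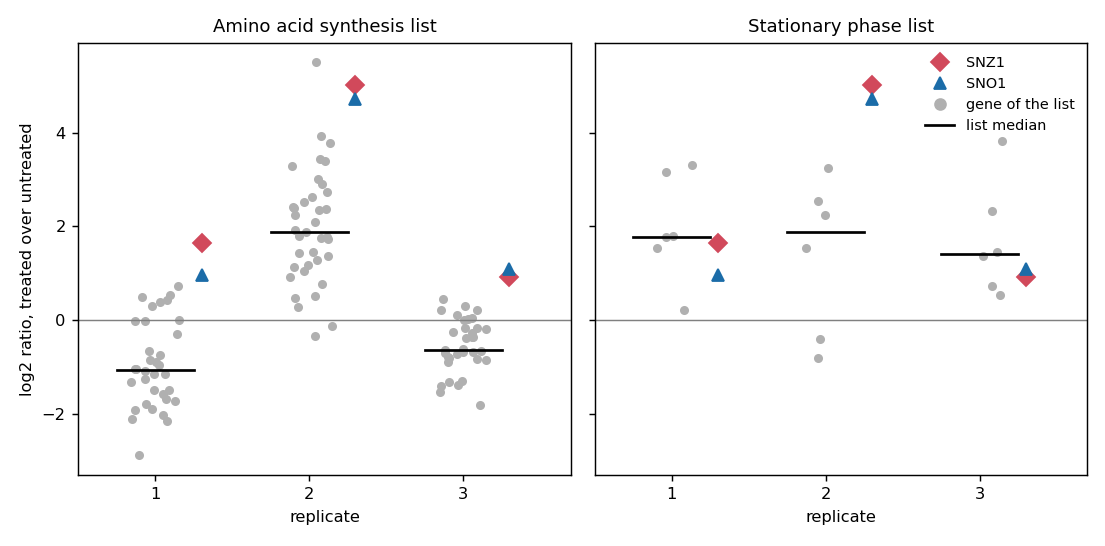
Log2 ratio of treated over untreated cells (vertical axis) on each array for a list of amino acid synthesis genes (left) and of stationary phase genes (right), as grey points with their median as a black bar, with SNZ1 and SNO1 in colour on both sides. The amino acid median is -1.06, 1.87 and -0.64 on replicates 1, 2 and 3, the stationary phase median stays between 1.40 and 1.88, and SNZ1 and SNO1 are above 0 throughout.

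The genes that flank the pair were measured in part. CTF13, a kinetochore gene on the SNO1 side, had no value on replicate 1 and stood at 2.83 and 0.95 on replicates 2 and 3. MTG1, a gene of a mitochondrial GTPase on the SNZ1 side, was at 0.03, 1.31 and 0.54 (mean 0.63 ± 0.64, limma adjusted p = 0.236). Both had their larger value on replicate 2, well below those of SNZ1 and SNO1.

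The SNZ2 and SNZ3 genes are near-identical copies, both 897 bases long in the reference gene table, and a probe for one may take up transcript of the other; probe sequences were not used here. SNZ3 (YFL059W) had log2 ratios of 1.58, 0.14 and 1.52. It was close to 3-fold higher on replicates 1 and 3, at 2.98-fold and 2.87-fold, and near 0 on replicate 2, the array on which SNZ1 was highest. The mean was 1.08 ± 0.82 (SD, n = 3, 95% interval 0.24 to 1.91, limma adjusted p = 0.0992), which did not pass. Without replicate 2 it was 1.55 and passed limma's test (adjusted p = 0.00690), where 7.31% of all features rose. SNZ3 did not pass without replicate 1 (mean 0.83, adjusted p = 0.332) or replicate 3 (0.86, 0.280), where 11 and 0 of the 3802 features passed.

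SNZ2 (YNL333W) had log2 ratios of 1.00, -0.02 and -0.46. Only replicate 1 was clearly above 0, and the mean of 0.18 ± 0.75 (SD, n = 3) had a 95% interval of -0.63 to 0.98 (limma adjusted p = 0.762). Its partner SNO2 (YNL334C), a glutaminase gene, was at 1.58, 0.29 and -0.25 (mean 0.54 ± 0.94, 95% interval -0.36 to 1.44, adjusted p = 0.380). As deposited, replicate 1 was highest and replicate 3 lowest for both, and SNZ2 was below SNO2 on each array, at a difference of -0.58, -0.31 and -0.20 (mean -0.37 ± 0.19). SNO2 and SNO3 share a length of 669 bases in the reference gene table. Whether the SNO2 probe takes up SNO3 transcript was not tested.

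The negative values of SNZ2 and SNO2 on replicate 3 coincided with sub-grids of low ratios. The median log2 ratio on replicate 3 was -0.58 in the sub-grid of SNZ2 and -0.78 in that of SNO2, the latter the lowest of the 32 sub-grids. With each sub-grid's median subtracted, SNZ2 stood at 0.69, 0.04 and 0.13 and SNO2 at 1.65, 0.40 and 0.53, so that no value of the pair was negative. The mean of SNO2 then rose to 0.86, with an adjusted p of 0.107. Across SNZ2, SNO2 and SNZ3, 6 of 9 values were above 0 as deposited, 7 with centring on the array median or quantile normalization, and all 9 with sub-grid medians subtracted. In that last setting SNZ2 and SNZ3 were each only at 0.04 on replicate 2. Over all probes the deposited medians were 0.09, -0.02 and 0.005 on replicates 1, 2 and 3, so values above 0 were common.

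The difference between the near-identical copies was uneven. SNZ3 exceeded SNZ2 by 0.57, 0.16 and 1.97 on the 3 arrays, a mean of 0.90 ± 0.95, within the spread between arrays. SNZ1 exceeded SNZ2 by 0.63, 5.04 and 1.37, and its difference from SNZ3 was 0.06, 4.88 and -0.61. Replicate 2 alone therefore carried the separation of SNZ1 from SNZ3. These differences are of values as deposited. With sub-grid medians subtracted, SNZ3 stood at 1.14, 0.04 and 1.49 (mean 0.89, limma adjusted p = 0.109), beside 0.69, 0.04 and 0.13 for SNZ2. Differences between genes were not tested.

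Among the thiamine genes, those of the pyrimidine precursor had ratios above 0 wherever measured, while THI4 and THI20 had both signs. THI13 (YDL244W), of the family that makes the pyrimidine precursor, had log2 ratios of 1.37, 0.64 and 2.10. All were above 0, at 2.59-fold, 1.56-fold and 4.28-fold, with replicate 3 highest. The mean was 1.37 ± 0.73 (SD, n = 3; 95% interval 0.58 to 2.16), and with an adjusted p of 0.0545 in limma it narrowly missed the threshold. It passed with a common scale on all arrays (adjusted p = 0.0378, where 4.29% of all features rose), quantile normalization (0.0358, 4.66%), robust moderation (0.0379, 4.39%) or array medians set to 0 (0.0495, 3.76%). Without replicate 2 the mean was 1.74 and passed at 0.00363, where 7.31% of all features rose. THI13 did not pass without replicate 1 (mean 1.37, adjusted p = 0.160) or replicate 3 (1.01, 0.163), where 11 and 0 features passed. The sub-grid of its probe had a median log2 ratio of 0.55 on replicate 3, the highest of all sub-grids on that array. With sub-grid medians subtracted, THI13 stood at 1.11, 0.53 and 1.55. The mean was then 1.06 and did not pass (limma adjusted p = 0.0525).

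The other copies of that family were measured in part. THI5 (YFL058W), the neighbour of SNZ3, had no value on replicate 1 and log2 ratios of 0.77 and 1.31 on replicates 2 and 3, a mean of 1.04 ± 0.38 (SD, n = 2). THI12, the neighbour of SNZ2, was at 0.36 and 2.11 on the same arrays, and THI11 had a single value, 0.90 on replicate 1. All 8 values of the 4 copies were above 0, from 0.36 to 2.11, as deposited and under each of the scalings tried, and in THI5, THI12 and THI13 replicate 3 was above replicate 2. The 4 genes share a length of 1023 bases in the reference gene table and are known to be nearly identical, so their probes may report the same transcripts and do not count as independent measurements. THI13 minus THI5 was -0.14 and 0.79 on the log2 scale on the arrays they share.

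**Figure D3:**
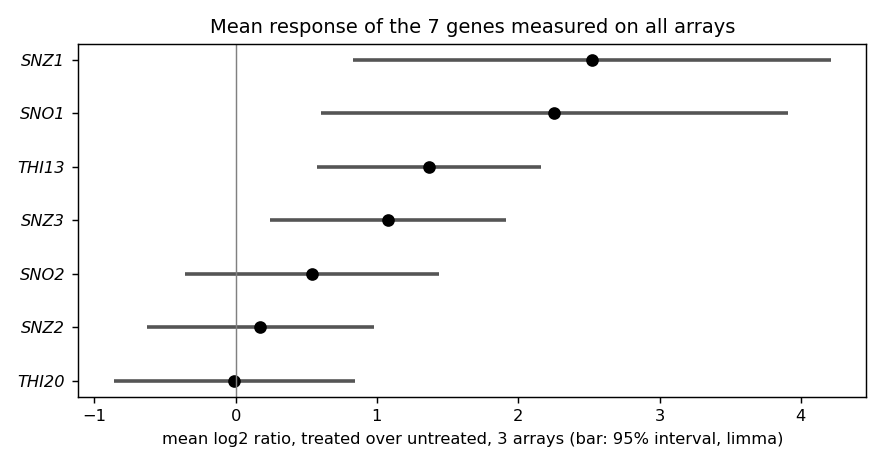
Mean log2 ratio of treated over untreated cells over 3 arrays (horizontal axis) for the 7 genes with a value on every array, with 95% intervals from limma as bars. The intervals of SNZ1, SNO1, THI13 and SNZ3 lie above 0 and those of SNO2, SNZ2 and THI20 span it; the intervals are not adjusted for the number of features tested, and after adjustment none of the 7 passed.

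THI4 (YGR144W), which encodes the thiazole synthase, had log2 ratios of 0.40 and -0.60 on replicates 1 and 2 and no value on replicate 3. The values fell on either side of 0, with a mean of -0.10 ± 0.71 (SD, n = 2). THI20 (YOL055C), whose product phosphorylates the pyrimidine precursor, was at 0.87, -0.06 and -0.84, a mean of -0.0083 ± 0.85 (95% interval -0.86 to 0.85, limma adjusted p = 0.991). Its values spread evenly around 0, and its sub-grid, which SNZ2 shares, had a median of -0.58 on replicate 3. The related THI21 had values on replicates 1 and 3 only, 0.80 and 0.43. THI22, a further relative of THI20, had a mean of 0.10 ± 0.27 (adjusted p = 0.825).

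THI20, SNZ2 and SNO2 each had replicate 1 highest and replicate 3 lowest as deposited. With sub-grid medians subtracted, replicate 3 stayed lowest for THI20 (-0.26), while replicate 2 was lowest for SNZ2 and SNO2. PSP1 (distance 0.12), CPP1 (0.21) and SEC11 (0.21) lay nearest to SNZ2, YDL144C (0.14), YLR159W (0.22) and SSA4 (0.22) to SNO2, and YNL115C (0.23), PHO2 (0.24) and GRX8 (0.25) to THI20. For SNZ3 the nearest were ADR1 (0.14), PRE8 (0.17) and RDL1 (0.23), and for THI13 they were XKS1 (0.24), EMP46 (0.32) and YDR476C (0.34).

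Measured genes next to the other members gave values of their own. AAD4, an aryl-alcohol dehydrogenase gene beside THI13, was at 1.65, 0.27 and 1.19 (mean 1.04 ± 0.70, limma adjusted p = 0.0933), and AAD6, of the same family, beside THI5, was at 2.44 and 0.55 on replicates 1 and 2. HXT15, a hexose transporter gene on the other side of THI13, was at 0.87 and 0.43 on replicates 1 and 3. DDI3, next to SNO3, was at 1.04, 0.96 and -0.36, and DDI2, next to SNO2, had -0.43 on replicate 2 alone. Beside THI4, ENP2 had a mean of -0.27 ± 0.35 (adjusted p = 0.541), and beside THI20, GPM3 had 0.15 ± 0.33 (0.751). None of the neighbours tested passed.

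The rest of the thiamine pathway was described by a list of 16 genes of its synthesis, transport and regulation, of which 15 had a probe and 8 a value on every array. Of the 8, 1 fell and none rose, and their median mean was -0.04, near that of all features. THI7, the plasma membrane thiamine transporter gene, was the 1 that fell, with log2 ratios of -2.08, -0.94 and -1.09 (mean -1.37 ± 0.62, SD, n = 3; limma adjusted p = 0.0447). It was below 0 on each array, the opposite sign to THI13; over all features 4.47% fell. The call was lost with sub-grid medians subtracted (mean -0.98, limma adjusted p = 0.0788), where 10.3% of all features passed in either direction. It was also lost without replicate 1 (-1.01, 0.195) and without replicate 3 (-1.51, 0.0908), where 11 and 0 of the 3802 features passed. THI72, a related transporter gene, was at -0.17 ± 0.14 (0.698).

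TPC1, the mitochondrial carrier of thiamine diphosphate, was at 1.40, 0.65 and 1.02 (mean 1.02 ± 0.37, limma adjusted p = 0.0659), above 0 on each array without passing. THI6, whose product joins the pyrimidine and thiazole, had a mean of 0.36 ± 0.34 (0.415). THI80, the thiamine pyrophosphokinase gene, had 1 value, -1.15 on replicate 2. PHO3, a periplasmic acid phosphatase gene that is known to be repressed by thiamine, was at 0.63, -2.56 and 0.17, so replicate 2 was far below the others.

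The regulators of the THI genes showed no shared direction. PDC2 had a mean of -0.13 ± 0.27 (limma adjusted p = 0.770). THI3 was at 0.43 and -0.05 on replicates 2 and 3, and THI2 had a single value of -1.48 on replicate 3.

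**Figure D4:**
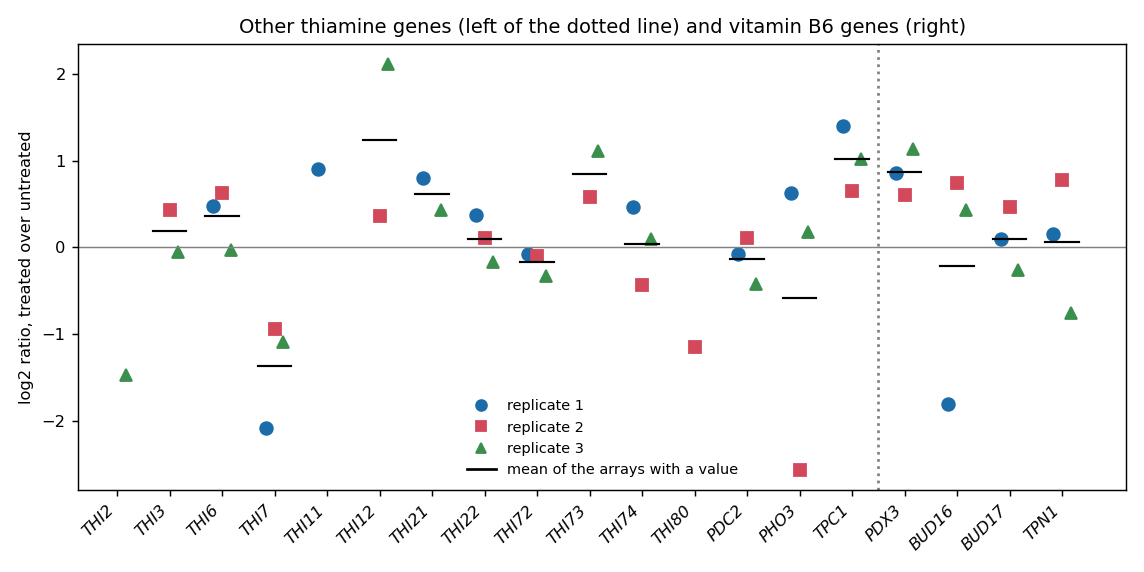
Log2 ratio of treated over untreated cells (vertical axis) for other genes of thiamine synthesis, transport and regulation (left of the dotted line) and of vitamin B6 metabolism (right); symbols are the 3 arrays and black bars the mean of the arrays with a value. THI7 is below 0 on each array, TPC1 and PDX3 are above 0 on each, and PHO3 stands at -2.56 on replicate 2.

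Beyond the SNZ and SNO genes, 4 of 5 listed vitamin B6 symbols had a probe and a value on every array, and none passed (median mean 0.08). The remaining symbol, PLR1, matched no gene of the reference gene table. PDX3, which encodes the oxidase that forms pyridoxal phosphate, had the largest mean, with 0.86, 0.60 and 1.13 on the 3 arrays (mean 0.87 ± 0.26, limma adjusted p = 0.0851). BUD16, a putative pyridoxal kinase gene, was at -1.80, 0.74 and 0.43, with replicate 1 apart, and BUD17, its relative, had a mean of 0.10 ± 0.36 (0.835). TPN1, the pyridoxine importer gene, was at 0.15, 0.78 and -0.76 (mean 0.06 ± 0.77, 0.926).

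Of 10 listed genes of enzymes that use thiamine diphosphate, 8 were tested, 1 rose and none fell, and the median mean was -0.44. The transketolase gene TKL1 had no probe and was not measured. TKL2, the minor transketolase, rose with log2 ratios of 2.51, 2.44 and 0.91 (mean 1.96 ± 0.90, SD, n = 3; limma adjusted p = 0.0325), where 3.39% of all features rose. It did not pass without replicate 1 (mean 1.68, adjusted p = 0.104) or without replicate 3 (2.48, 0.0601), the settings with 11 and 0 features past the threshold in all. PDC5, a pyruvate decarboxylase gene, was at -0.91, -2.04 and -0.66 (mean -1.20 ± 0.74, adjusted p = 0.0725), below 0 on each array without passing. PDA1, of the same list, was at 1.76, 0.31 and 1.17 (mean 1.08 ± 0.73, adjusted p = 0.0906), above 0 on each array without passing. Of the 8 tested, 2 were above 0 and 2 below 0 on all 3 arrays.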

How the data were processed

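The deposited table holds 1 log2 ratio per probe and array, as read here; per the labels, the authors used spots with a flag value of 0 for a LOWESS normalization. The scanner, the software, any background correction and the direction and base of the log are not given in the sources used here. Whether each untreated RNA came from its own culture was likewise not given, so p-values may measure technical spread in part. Probes were named through GEO's platform annotation: 5308 had 1 gene symbol and 964 none, and 5304 matched the reference gene table (R64) by Entrez identifier. That table gave names, lengths and gene order only. Probes of a gene were averaged per array.

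The 3802 features measured on each of the 3 arrays were tested with limma 3.58.1 in R 4.3.3 (lmFit, eBayes, intercept only, mean against 0, two-sided). Benjamini-Hochberg adjustment ran over all of them, with a threshold of 0.05. The fit was also run on simulated data with independent noise for each feature. That run held no shifts shared by many genes within an array, so it does not bear on them. A fold is 2 to the power of the ratio. The 32 sub-grids, in 4 columns and 8 rows, were inferred from probe numbers. The members and lists were chosen with earlier results of these data known. The genes named are all members, genes of the thiamine, vitamin B6 and thiamine diphosphate lists past the threshold or, with none in a list, the largest mean, GCN4, THI2, THI3 and PDC2, the 3 genes nearest to each member, and its measured neighbours; other listed genes are named for their role and were chosen after their values were seen.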

Additional observations from a re-analysis of the deposited data

How the results depend on the processing

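Leaving out each array in turn gave 0 to 3 member genes past the threshold, against 0 with all arrays; the 3, without replicate 2, were SNZ1, SNZ3 and THI13. The share of all features that rose was 7.31% without replicate 2, 0.263% without replicate 1 and 0% without replicate 3. THI13 alone passed (1 gene) with centring, a common median absolute deviation, quantile normalization or robust moderation. At an adjusted p under 0.1, 4 genes passed, all upward, as 18.8% of all features did in either direction and 7.89% upward. No member passed with values on at least 2 arrays, no moderation, array weights, the first listed probe, sub-grid medians, an adjusted p under 0.01 or a test against a 1.5-fold change. Means over the arrays left out ran from 1.27 to 3.32 for SNZ1, 1.03 to 2.90 for SNO1, 0.83 to 1.55 for SNZ3, 0.02 to 0.94 for SNO2 and 1.01 to 1.74 for THI13. The mean of SNZ2 turned to -0.24 without replicate 1, within a range of -0.24 to 0.49. The mean of THI20, near 0, changed sign with sub-grid medians (0.10), with array weights (0.029), without replicate 2 (0.02) and without replicate 3 (0.41; -0.45 without replicate 1); the cause was not tested. With unchanged means of -1.37 and 1.96, THI7 and TKL2 also lost their calls without moderation (adjusted p = 0.325 and 0.328), where 1 of 3802 features passed, and in the test against a 1.5-fold change (0.292 and 0.138), where 4 did. THI7 lost its call with values on at least 2 arrays (0.0565). Each ratio is already a difference within an array. No paired analysis was possible because there is 1 group of arrays, so no replicate number is shared between groups. Signal over background is unknown.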
